A study of Mus musculus with 196 samples.

Results

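The 32 libraries described here come from cultures of mouse PGCLCs (primordial germ cell-like cells) that lack Zglp1 and were kept either with BMP2 or as controls until day 4, 5, 7 or 9. They are 32 of the 196 labelled samples of the study and were chosen by their labels alone: Zglp1 knockout, clone E5 or clone G10, treatment BMP2 or control. Each clone gave 16 libraries, 2 for each treatment and day, so that every day had 4 BMP2 libraries and 4 control libraries. BMP2 and control libraries shared the reporters Prdm1-mVenusTg/0 and Dppa3-ECFPTg/0 together with Zglp1-/- on a mixed background of 129S1 and C57BL/6 in equal parts. The parent line H18 carries the same reporters with Zglp1 intact, and its libraries are used only where they are named. Each clone is a single line, so a difference between E5 and G10 may belong to those lines rather than to the genotype. The labels state neither the dose of BMP2 nor the make-up of the control medium, and they do not say whether replicates 1 and 2 were separate cultures. The p-values below therefore measure only the spread between these libraries.

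PGCLCs model early germ cells and are obtained by turning embryonic stem cells into epiblast-like cells and then into germ cell-like cells. Here BMP4 and other factors were used to induce them, cells positive for the Prdm1 reporter were sorted onto m220 feeder cells, which display membrane-bound stem cell factor, and cells positive for the Dppa3 reporter were sorted again for RNA. BMP2 binds a complex of type I and type II serine/threonine kinase receptors, which phosphorylate SMAD1, SMAD5 and SMAD9. These SMADs enter the nucleus with SMAD4 and switch on direct targets such as the Id genes, whose products are helix-loop-helix proteins that bind and block basic helix-loop-helix transcription factors. ZGLP1 is a GATA-like zinc finger protein of germ cells. In female germ cells BMP signalling induces Zglp1, and ZGLP1 in turn promotes the oogenic programme, while retinoic acid induces Stra8, which is needed for entry into meiosis. The comparison of BMP2 with control in clones without Zglp1 asks which part of the BMP2 response is present when ZGLP1 is missing.

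Levels are given in RPM, the reads at a gene's 3' end scaled so that all endogenous genes of a library have the same total. The libraries held 1764077 to 5196593 reads, 1 read was worth 0.192 to 0.567 RPM, and 13914 to 15790 genes had at least 1 read. The test took in the 9566 genes with 10 RPM or more in 4 or more of the 32 libraries. A gene was called when the limma adjusted p was under 0.05 and the change on the log2(RPM + 1) scale was at least 1, and every log2 change below is on that scale, which understates changes of low genes. The 8 early germ cell markers summed to 1729 to 2224 RPM with BMP2 and 1550 to 2099 RPM in controls at day 9, and none of the 8 was at 0 in any group of 4. Dppa3 was the highest of the 8, with a median of 1263 RPM over the 32 libraries. As cells were sorted on the Prdm1 and Dppa3 reporters, these sums say little about whether germ cell character changed. The 8 feeder and stroma markers summed to 163 to 240 RPM with BMP2 and 133 to 348 RPM in controls at day 9. The 5 gonadal soma markers summed to 0 to 4.33 RPM with BMP2 and 0 to 0.830 RPM in controls at day 9. Among these markers Amh had no read in any of the 32 libraries, while Wt1 had none in 16 and reached 4.33 RPM. In these bulk libraries fewer cells that express a gene and less RNA per cell cannot be told apart.

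One library stood apart. The second E5 control of day 4 had 90.2 RPM of Pou5f1, 56.5 RPM of Nanog and 40.5 RPM of Kit, below the other 31 libraries, whose lowest values were 178 RPM for Pou5f1, 152 RPM for Nanog and 125 RPM for Kit. It correlated with its replicate at r = 0.909 across genes, against 0.936 to 0.978 for the replicates of the other 15 groups. With the first E5 control of day 4 left out, so that only this library stood for its group, 117 genes were called at day 4. With this library left out the number was 3, and with all libraries it was 5.

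Of the tested genes 5 rose and 0 fell at day 4, which is 0.0523% and 0%. At day 5, 7 rose and 19 fell (0.0732% and 0.199%), at day 7, 25 rose and 45 fell (0.261% and 0.47%), and at day 9, 71 rose and 53 fell (0.742% and 0.554%). The balance at day 9 turned with the setting, since the edgeR test gave 67 rises and 76 falls, no filter on low values 185 and 294, and the fit without the first E5 BMP2 library 53 and 71. At an unadjusted p under 0.05 there were 386, 497, 1059 and 1194 genes at days 4, 5, 7 and 9. Over the 4 days 75 genes were called higher at 1 day or more and 73 were called lower, with no gene in both sets. Id1, Unc5b, Phlda2 and Zglp1 were called higher at every day, and no gene was called lower at every day.

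**Figure D1:**
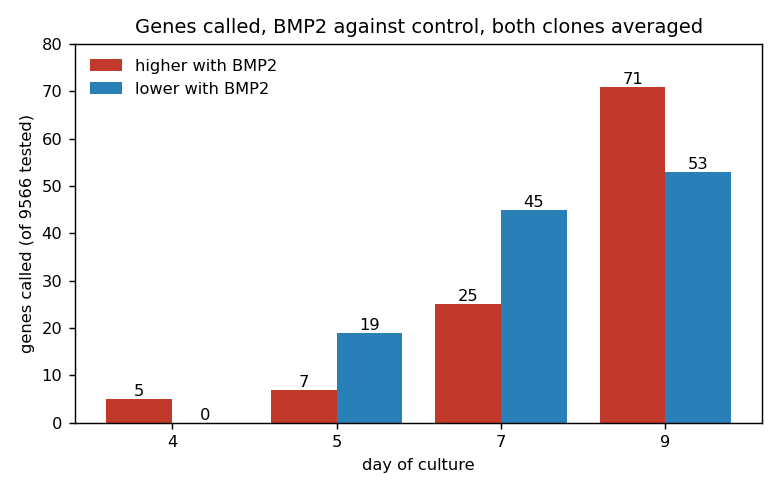
The number of genes called higher and lower with BMP2 than in controls at days 4, 5, 7 and 9, out of all tested genes. Higher genes number 5, 7, 25 and 71 and lower genes 0, 19, 45 and 53.

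The 250 bases before the start of 4 genes that rose at day 4 are shown here because these genes were called at the earliest day measured, and because GGCGCC is a GC-rich sequence that SMAD1 and SMAD5 are known to bind. The sequences run 5' to 3' on the gene's strand up to the base before the start, from RefSeq on GRCm38.p6, the assembly behind the mm10 build of the study. Each lies on the minus strand, at chr12:25096093-25096342 for Id2, chr7:143502525-143502774 for Phlda2, chr9:21067094-21067343 for Zglp1 and chr10:60831582-60831831 for Unc5b. The Phlda2 window lies inside the full span of that gene, chr7:143501545-143503145, so the start used for it is an inner one. Capitals mark GGCGCC, which reads the same on both strands.
Id2: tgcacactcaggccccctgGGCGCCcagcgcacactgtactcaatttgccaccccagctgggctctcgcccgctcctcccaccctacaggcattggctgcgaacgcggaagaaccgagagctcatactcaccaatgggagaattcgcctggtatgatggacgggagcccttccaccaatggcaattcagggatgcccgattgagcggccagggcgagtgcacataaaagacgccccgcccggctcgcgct
Phlda2: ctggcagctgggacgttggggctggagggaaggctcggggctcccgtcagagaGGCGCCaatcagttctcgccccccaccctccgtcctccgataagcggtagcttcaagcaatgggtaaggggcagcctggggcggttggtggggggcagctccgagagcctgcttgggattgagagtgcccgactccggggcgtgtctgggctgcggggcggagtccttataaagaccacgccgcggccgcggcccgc
Zglp1: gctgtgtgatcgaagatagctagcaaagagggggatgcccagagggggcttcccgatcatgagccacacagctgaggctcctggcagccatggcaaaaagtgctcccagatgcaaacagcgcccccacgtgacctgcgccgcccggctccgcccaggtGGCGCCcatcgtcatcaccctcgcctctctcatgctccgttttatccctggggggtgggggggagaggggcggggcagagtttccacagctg
Unc5b: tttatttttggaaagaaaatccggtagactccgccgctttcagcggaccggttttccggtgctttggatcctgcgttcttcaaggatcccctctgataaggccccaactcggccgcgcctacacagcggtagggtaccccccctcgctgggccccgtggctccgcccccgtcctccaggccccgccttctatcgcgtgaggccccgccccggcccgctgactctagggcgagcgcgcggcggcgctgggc
The first base of GGCGCC lies at position -231 in Id2, -197 in Phlda2 and -92 in Zglp1, counted backwards from the start. The Unc5b window holds no GGCGCC. Id1, the gene with the largest rise at day 4, lies at chr2:152736251-152737410 and is named without a sequence. In windows of this length GGCGCC was present in 10.8% of the 27025 genes with a RefSeq row and in 21.0% of the 7635 tested genes among them. Among genes with a row, it was present in 3 of 4 that rose at day 4, in 2 of 6 that rose and 4 of 15 that fell at day 5, in 5 of 17 that rose and 1 of 35 that fell at day 7, and in 16 of 57 that rose and 2 of 42 that fell at day 9. The palindrome GTCTAGAC, the other SMAD sequence searched, was present in 0.275% of tested genes and in none of the called genes with a row. These matches describe letters in a window and are not binding sites.

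The targeted gene itself was called higher with BMP2 at every day. The 4 values of a treatment are given throughout in the order E5 replicates 1 and 2, then G10 replicates 1 and 2. Zglp1 had 4.99, 7.86, 4.41 and 2.51 RPM with BMP2 at day 4, against 1.13, 0.355, 1.105 and 0.982 RPM in controls. At day 9 it had 29.8, 29.2, 7.90 and 9.79 RPM with BMP2, against 1.06, 3.35, 2.91 and 3.24 RPM in controls. BMP2 and control libraries did not overlap at any day, and the E5 values with BMP2 lay above the G10 values at each day. The log2 change was 1.597 (SE 0.36, adjusted p = 0.035) at day 4 and 2.31 (SE 0.36, adjusted p = 1.8e-06) at day 9. H18, with Zglp1 intact, had 50.4 and 62.3 RPM with BMP2 at day 9, and the knockout clones differed from it by -1.72 (SE 0.44, adjusted p = 0.0015), in a comparison that called 14% of tested genes. The day 9 response in G10 minus that in E5 was -2.08 (SE 0.71, adjusted p = 0.31), so the clones were not shown to differ. The reads come from the 3' end of the Zglp1 locus at chr9:21062393-21067093, and the labels do not say which part was deleted, so they check neither the deletion nor the protein.

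The BMP targets Id1 and Id2 were called higher at day 4, and Id3, Msx2 and Bambi at days 7 and 9. A day without a call is not a day shown to be without change. Id1 had 63.4, 122, 54.0 and 119 RPM with BMP2 at day 4, against 3.97, 7.46, 4.42 and 8.84 RPM in controls. It had 92.3, 75.8, 118 and 74.3 RPM with BMP2 at day 5, against 10.1, 12.8, 6.20 and 4.41 RPM in controls. All BMP2 libraries lay above all controls at both days. At day 7 Id1 had 112, 98.7, 85.3 and 106 RPM with BMP2, against 11.9, 5.53, 6.77 and 6.40 RPM in controls, and at day 9 123, 100.7, 138 and 197 RPM with BMP2, against 13.05, 10.05, 7.06 and 13.4 RPM in controls. The log2 change was 3.63 (SE 0.40, adjusted p = 1.6e-10) at day 4, 3.35 (SE 0.40, adjusted p = 5.1e-09) at day 5, 3.59 (SE 0.40, adjusted p = 1.8e-10) at day 7 and 3.56 (SE 0.40, adjusted p = 9.5e-11) at day 9. The 4 changes of Id1 lay within 1 SE of each other, and its day 9 minus day 4 difference was -0.07 (SE 0.57, adjusted p = 1).

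Id2, a second Id gene, had 25.6, 43.8, 27.0 and 35.5 RPM with BMP2 at day 4, against 5.67, 6.75, 3.31 and 7.53 RPM in controls, and 103, 88.2, 79.0 and 125 RPM with BMP2 at day 9, against 54.0, 39.7, 18.3 and 43.5 RPM in controls. Control levels were higher at day 9 than at day 4 in each clone, and the BMP2 libraries lay above the controls at both days. Id2 was called at day 4 with a log2 change of 2.33 (SE 0.37, adjusted p = 3.0e-05) and at day 9 with 1.40 (SE 0.37, adjusted p = 0.017), and its changes of 1.37 at day 5 and 1.18 at day 7 did not pass. Id3 had 412, 387, 349 and 356 RPM with BMP2 at day 4, against 260.2, 265, 235 and 248 RPM in controls, and 121, 90.9, 244 and 325 RPM with BMP2 at day 9, against 59.9, 71.3, 95.9 and 73.6 RPM in controls. Within each clone the Id3 values did not overlap at day 9, while E5 with BMP2 and the G10 controls did. Id3 was called at day 7 (1.07 (SE 0.26, adjusted p = 0.013)) and day 9 (1.20 (SE 0.26, adjusted p = 0.002)). At day 4 all its BMP2 libraries lay above all controls, though it was not called.

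The BMP response list holds 18 genes, of which 10 were tested. Its members called higher numbered 2 at day 4, 1 at day 5, 4 at day 7 and 6 at day 9, with none lower. All 10 had a positive change at each day, where 55.2% to 59.1% of all tested genes did. The median log2 change of the 10 was 0.83 at day 4, 1.08 at day 5, 1.13 at day 7 and 1.302 at day 9, where the median of all tested genes was 0.04, 0.03, 0.06 and 0.03. For the day 9 minus day 4 difference 0 of the 10 were called, with a median of 0.30 against -0.02 for all tested genes. Of all tested genes 0.0314% were called higher and 0.0941% lower for that difference. Msx2, a homeobox repressor, had 51.1, 61.1, 18.4 and 63.7 RPM with BMP2 at day 9, against 8.82, 21.0, 5.81 and 4.17 RPM in controls. The first G10 library with BMP2 was the lowest of its 4 and fell below the second E5 control. Msx2 was called at day 7 (1.95 (SE 0.53, adjusted p = 0.039)) and day 9 (2.27 (SE 0.53, adjusted p = 0.0055)). Bambi, a decoy receptor that dampens BMP and TGF-beta signals, was called at day 7 with 1.41 and at day 9 with 1.43. Gata2, a zinc finger factor, had 124, 69.8, 107 and 132 RPM with BMP2 at day 9, against 44.8, 40.2, 48.2 and 24.5 RPM in controls, and was called at day 9 (1.44 (SE 0.37, adjusted p = 0.015)). The inhibitory Smad6 and Smad7 were not called at any day, with changes at day 9 of 0.73 and 0.55.

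None of the 18 tested genes among 29 BMP ligands, receptors, SMADs and inhibitors was called at any day, and their median change lay between -0.01 and 0.14. At most 0.742% of all tested genes were called in 1 direction at any day. Hand1, a basic helix-loop-helix factor of mesoderm and trophoblast, had 11.0, 12.4, 13.2 and 15.7 RPM with BMP2 at day 9, against 0.705, 0.478, 1.25 and 0 RPM in controls. The groups did not overlap from day 5 on, and Hand1 was called at day 7 (2.03 (SE 0.52, adjusted p = 0.022)) and day 9 (3.18 (SE 0.52, adjusted p = 1.0e-05)). It was the only one of 4 tested mesoderm and endoderm genes called, and no Hox gene and no gonadal soma gene of the lists reached the level needed for the test.

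**Figure D2:**
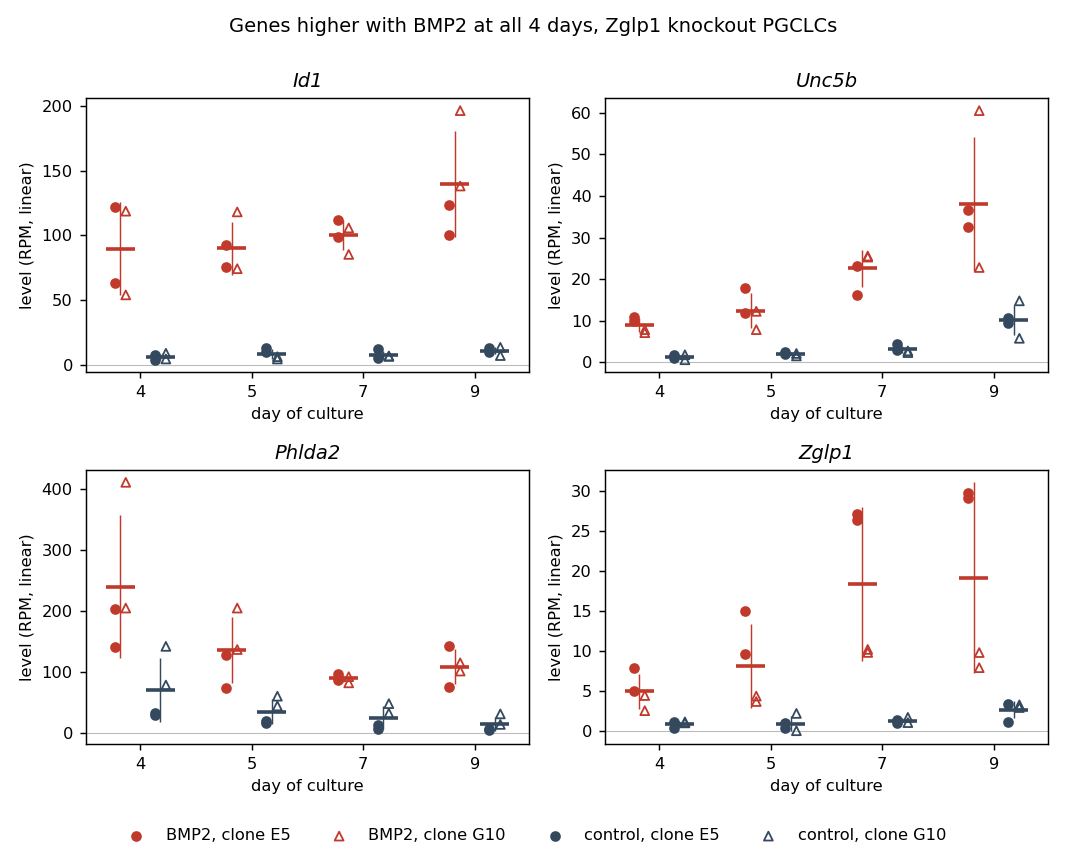
Levels in RPM of Id1, Unc5b, Phlda2 and Zglp1 by day, with BMP2 to the left of control, E5 as filled circles, G10 as open triangles, the bar as the mean of 4 libraries and the line as its SD. Id1 lies between 54.0 and 197 RPM with BMP2 and between 3.97 and 13.4 RPM in controls over the 4 days.

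The other genes called higher at every day were Unc5b and Phlda2. Unc5b encodes a netrin receptor. It had 9.99, 10.9, 7.16 and 7.90 RPM with BMP2 at day 4, against 1.13, 1.78, 1.84 and 0.654 RPM in controls, and 16.2, 23.3, 25.3 and 25.6 RPM with BMP2 at day 7, against 2.91, 4.50, 2.37 and 2.78 RPM in controls. At day 9 it had 36.6, 32.5, 22.8 and 60.5 RPM with BMP2, against 10.6, 9.57, 5.81 and 14.8 RPM in controls. No BMP2 library fell among the controls at these days, and the second G10 library was the highest of each treatment at day 9. The log2 change was 2.102 (SE 0.39, adjusted p = 0.0013) at day 4, 2.09 at day 5, 2.52 at day 7 and 1.78 (SE 0.39, adjusted p = 0.0021) at day 9.

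Phlda2 is an imprinted gene expressed from the maternal copy, whose product restrains placental growth. It had 141, 203, 205 and 412 RPM with BMP2 at day 4, against 31.7, 29.5, 78.4 and 142 RPM in controls. The second G10 control lay above the first E5 library with BMP2, so the treatments overlapped across clones but not within either clone. At day 9 Phlda2 had 143, 74.7, 115 and 101.4 RPM with BMP2, against 4.94, 6.70, 13.7 and 31.0 RPM in controls, with no overlap. The log2 change was 1.94 (SE 0.44, adjusted p = 0.04) at day 4, 2.06 at day 5, 2.16 at day 7 and 3.14 (SE 0.44, adjusted p = 1.6e-07) at day 9. With 1 library left out or the processing altered, Phlda2 kept its day 4 call in 10 of 20 refits and Zglp1 in 7 of 19, while Id1 and Id2 kept theirs in 20 of 20.

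Pla2g16, Pla2g7 and Entpd2 were among the largest rises of the later days. Pla2g16, a phospholipase, had 92.2, 89.0, 40.7 and 60.6 RPM with BMP2 at day 7, against 16.8, 13.5, 13.9 and 18.6 RPM in controls, and was called at day 5 (1.29), day 7 (2.04 (SE 0.27, adjusted p = 1.7e-08)) and day 9 (2.14). Pla2g7, which hydrolyses platelet-activating factor, had 34.3, 16.2, 17.6 and 23.8 RPM with BMP2 at day 9, against 4.23, 1.44, 2.08 and 7.87 RPM in controls, and was called at day 7 (1.78) and day 9 (2.41 (SE 0.39, adjusted p = 6.7e-06)). Neither gene overlapped between treatments at those days. Entpd2, an enzyme that breaks down extracellular nucleotides, was called at day 5 (1.15), day 7 (1.66) and day 9 (1.45), with 15.9 to 32.9 RPM with BMP2 and 4.94 to 11.0 RPM in controls at day 9. Lss, which makes lanosterol, was the 1 gene called among 19 tested cholesterol synthesis genes (1.01 at day 9). Of those 19 genes, 19 had a positive change at day 7 and 18 at day 9, with medians of 0.53 and 0.44. Among all tested genes 59.1% and 55.2% had a positive change at these days.

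Sct, Sdc3 and Cited1 were among the 10 largest rises named at day 9. Sct, the hormone secretin, had 34.3, 34.1, 23.7 and 29.4 RPM with BMP2, against 21.9, 4.31, 2.91 and 8.33 RPM in controls, and Sdc3, a cell surface proteoglycan, had 45.3, 31.4, 57.1 and 52.5 RPM with BMP2, against 10.6, 9.09, 17.0 and 13.4 RPM in controls. The treatments did not overlap in either gene, though the first E5 control of Sct lay well above the other controls. Their log2 changes were 1.93 (SE 0.50, adjusted p = 0.015) for Sct and 1.82 (SE 0.36, adjusted p = 4.9e-04) for Sdc3. Cited1, a transcriptional co-activator, was called at day 7 (1.86) and day 9 (1.80 (SE 0.45, adjusted p = 0.01)), with 30.8, 24.9, 14.9 and 18.5 RPM with BMP2 at day 9, against 16.9, 11.5, 0.830 and 3.24 RPM in controls. The Cited1 controls of E5 lay far above those of G10 and overlapped the G10 libraries with BMP2. Syt5, a synaptotagmin of vesicle fusion, was called at day 7 (1.70) and day 9 (1.43), as were Trim47, a ring finger protein (1.57 and 1.25), and Lrrc34, a leucine-rich repeat protein (1.55 and 1.77).

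Nnat, Sox11, Tubb3, Robo3, Crmp1 and Stmn2, each known from neurons or their progenitors, were among the largest falls named at day 9. Nnat, Sox11, Robo3 and Crmp1 were low in all libraries at day 4 and were found mainly in the controls afterwards. Nnat, an imprinted gene expressed from the paternal copy and encoding a small membrane protein of the developing brain, had 2.104, 0.581, 0 and 0.192 RPM with BMP2 at day 5, against 50.7, 13.5, 8.99 and 13.6 RPM in controls. At day 7 it had 0.927, 1.94, 0 and 0 RPM with BMP2, against 52.3, 27.7, 12.5 and 40.9 RPM in controls, and at day 9 0.647, 2.16, 2.19 and 3.85 RPM with BMP2, against 30.7, 20.6, 49.4 and 107 RPM in controls. Every BMP2 library lay below every control at these days, whereas at day 4 no control exceeded 6.39 RPM and the treatments overlapped. Nnat fell at day 5 (-3.55 (SE 0.49, adjusted p = 3.9e-07)), day 7 (-4.31 (SE 0.49, adjusted p = 1.8e-10)) and day 9 (-3.87 (SE 0.49, adjusted p = 4.6e-09)).

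Sox11, a transcription factor of neural progenitors, had 0.526, 1.16, 1.08 and 1.35 RPM with BMP2 at day 5, against 45.7, 12.1, 4.03 and 4.41 RPM in controls, and 2.91, 3.25, 2.19 and 3.15 RPM with BMP2 at day 9, against 34.6, 26.3, 56.9 and 97.7 RPM in controls. The E5 controls were the higher ones at day 5 and the G10 controls at day 9. Its log2 change was -2.50 (SE 0.52, adjusted p = 0.0029) at day 5, -3.73 at day 7 and -3.66 (SE 0.52, adjusted p = 1.8e-07) at day 9. Tubb3, the beta-tubulin of neurons, had 1.94, 1.08, 1.32 and 3.498 RPM with BMP2 at day 9, against 18.3, 16.7, 20.8 and 39.4 RPM in controls, and fell at day 5 (-2.14), day 7 (-2.66) and day 9 (-3.05 (SE 0.43, adjusted p = 1.4e-07)). It was the only member called of the neural list, of which 6 of 18 genes were tested, with a median change of -0.15 at day 5, -0.81 at day 7 and -0.77 at day 9.

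Robo3, an axon guidance receptor, had 0.526, 0.581, 0 and 0.385 RPM with BMP2 at day 5, against 41.9, 0.346, 0 and 0.946 RPM in controls, so that 1 E5 control held almost all of it. By day 9 it had 0.324, 0, 0 and 0 RPM with BMP2, against 15.52, 24.4, 24.1 and 37.5 RPM in controls, and all 4 controls were high. Robo3 was called at day 7 (-4.29 (SE 0.57, adjusted p = 2.2e-08)) and day 9 (-4.56 (SE 0.57, adjusted p = 2.6e-09)). Dcx, a microtubule protein of migrating neurons, had no read with BMP2 at days 5, 7 and 9 and 10.9, 8.61, 14.1 and 33.3 RPM in controls at day 9. Taking a floor of 3 reads over the 4 BMP2 libraries, Dcx was at least 20.3-fold lower with BMP2 at day 5, at least 29.3-fold at day 7 and at least 54.8-fold at day 9. These folds pool the 4 controls of a day, which held 50 Dcx reads at day 5. Dcx was called at days 7 and 9 but not at day 5. Miat, a long non-coding RNA, likewise had no read with BMP2 at these days and 14.46, 10.05, 12.04 and 33.3 RPM in controls at day 9, at least 32.1-fold, 50.8-fold and 57.6-fold lower with BMP2 at days 5, 7 and 9. The floors cover counting error only, since the reads carry no stated molecular identifiers.

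Stmn2, which destabilises microtubules in neurons, had 2.91, 2.71, 2.63 and 7.35 RPM with BMP2 at day 9, against 22.6, 19.14, 27.0 and 115 RPM in controls. The second G10 control of day 9 had the highest Stmn2, Nnat, Sox11 and Tubb3 of the 4 controls. Stmn2 fell at day 7 (-1.96) and day 9 (-2.94 (SE 0.49, adjusted p = 1.3e-05)), and Crmp1, a mediator of semaphorin signals in axons, fell at day 5 (-1.98), day 7 (-3.52) and day 9 (-2.90). Mtap1b, a microtubule-associated protein of neurons, fell at day 7 (-1.63) and day 9 (-1.28). Marcks, an actin-linked substrate of protein kinase C, fell at day 5 (-1.66) and day 7 (-1.46), and Tuba1b, an alpha-tubulin, fell at day 5 (-1.28). In H18 with BMP2 at day 9, Nnat had 0 and 0 RPM, Dcx 0 and 0 RPM and Robo3 0 and 0 RPM. The H18 controls used here are of days 3.5 and 4.

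**Figure D3:**
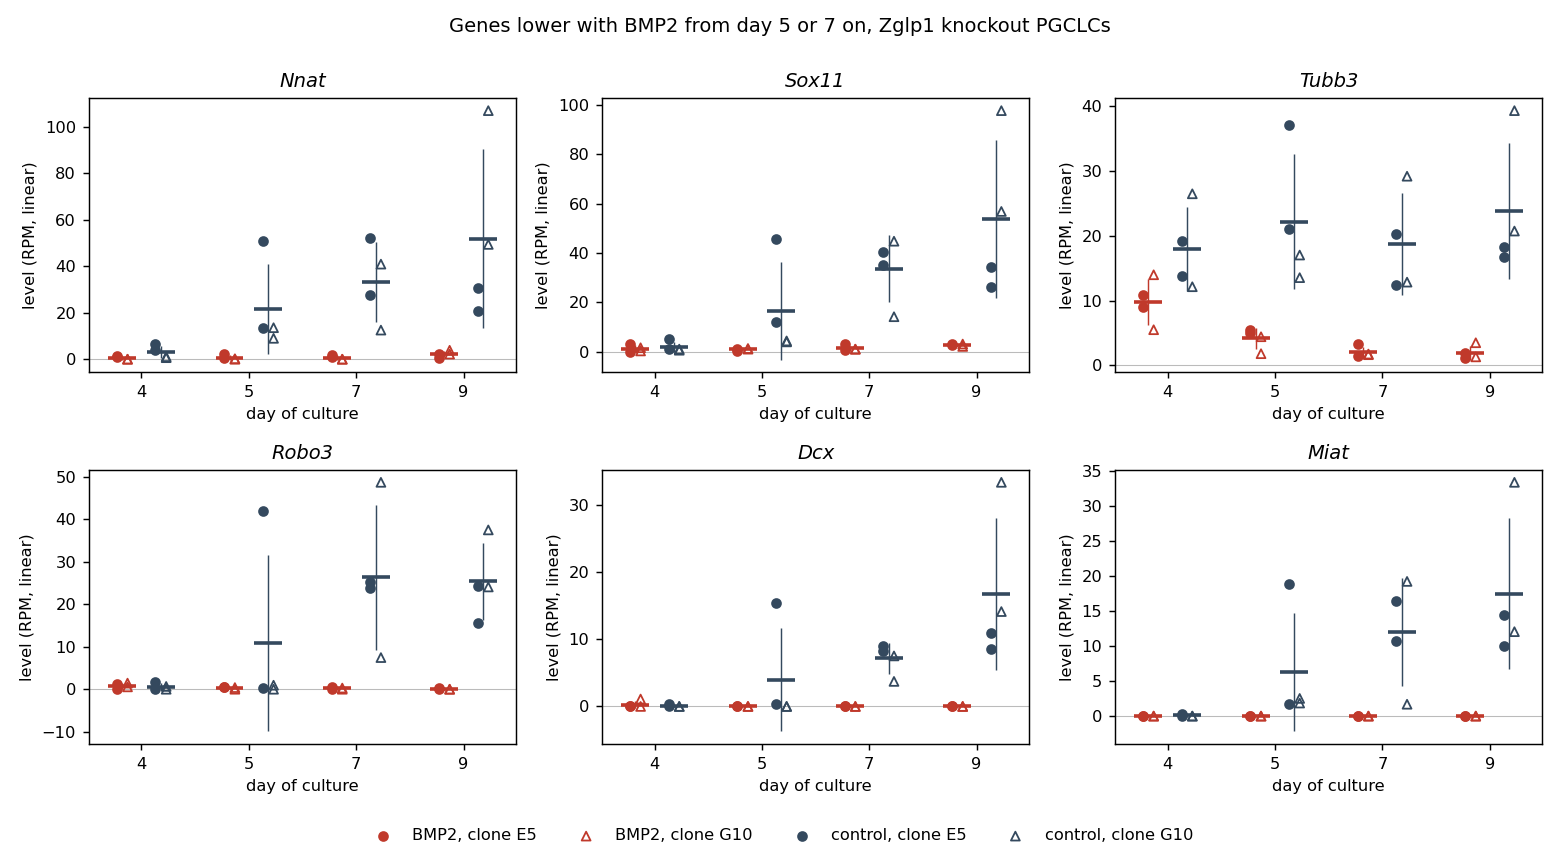
Levels in RPM of Nnat, Sox11, Tubb3, Robo3, Dcx and Miat by day, with BMP2 to the left of control, E5 as filled circles, G10 as open triangles, the bar as the mean of 4 libraries and the line as its SD. At day 9 the controls of Dcx lie between 8.61 and 33.3 RPM and all 4 BMP2 libraries are at 0, while at day 4 the treatments overlap in all 6 genes.

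Crabp1 and Crabp2 fell at day 5, and Mt1, Mt2 and Acsbg1 fell at days 7 and 9. Crabp2, a cytoplasmic retinoic acid-binding protein, had 6.05, 5.52, 3.62 and 5.77 RPM with BMP2 at day 5, against 43.8, 68.4, 17.98 and 24.3 RPM in controls, and its relative Crabp1 had 40.0, 28.2, 18.8 and 17.7 RPM with BMP2, against 94.2, 132, 60.4 and 43.5 RPM in controls. The E5 controls were higher than the G10 controls in both genes, and neither gene overlapped between treatments. Crabp2 fell at day 5 (-2.51 (SE 0.35, adjusted p = 3.9e-07)) and day 7 (-2.08), and Crabp1 at day 5 (-1.57 (SE 0.38, adjusted p = 0.024)). At day 9 their changes of -0.58 and 0.16 did not pass. They were the only called genes of the retinoic acid response list, of which 7 of 20 members were tested.

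The metallothioneins Mt1 and Mt2, which bind zinc and copper, fell at day 7 (-1.62 and -1.98) and day 9 (-1.61 and -1.69). Over 20 refits, single clones included, the day 9 change ran from -2.99 to -0.228 for Mt1 and -2.89 to -0.494 for Mt2. Their day 9 calls were kept in 13 and 18 of 20. Mt2 had 69.5, 39.9, 19.5 and 33.6 RPM with BMP2 at day 7, against 214, 99.3, 149 and 153 RPM in controls, with all BMP2 libraries below all controls. Krt7, a keratin of simple epithelia, had 6.57, 3.48, 5.78 and 4.23 RPM with BMP2 at day 5, against 39.4, 11.8, 26.7 and 15.4 RPM in controls, and fell at day 5 (-1.9003), day 7 (-2.29) and day 9 (-1.69). Acsbg1, an acyl-CoA synthetase, had 10.7, 17.5, 12.4 and 10.5 RPM with BMP2 at day 7, against 62.6, 61.6, 53.2 and 67.4 RPM in controls, and fell at day 7 (-2.20) and day 9 (-3.18). Slc7a3, a transporter of cationic amino acids, fell at day 7 (-1.38) and day 9 (-1.85), and Phgdh, which starts serine synthesis, fell at day 9 (-1.04). The Phgdh change ran from -1.62 to -0.457 over the refits, and its call was kept in 13 of 20. Man2a1, a Golgi mannosidase, fell at day 5 (-1.49), and Tmsb4x, which binds actin monomers, at day 7 (-1.63).

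Of 13 tested imprinted genes, Phlda2 was called higher at every day, Nnat lower at days 5, 7 and 9, and Mest lower at day 5. Mest, expressed from the paternal copy, had 99.7, 96.7, 76.6 and 78.7 RPM with BMP2 at day 5, against 211, 289.7, 159 and 155 RPM in controls, and a log2 change of -1.16 (SE 0.26, adjusted p = 0.012). At day 5, 12 of the 13 genes had a negative change, with a median of -0.39, where 44.3% of all tested genes had a negative change. No feeder or stroma gene was called at any day out of 15 tested, where at most 0.742% of all tested genes were called in 1 direction. The median change of the 15 was -0.65 at day 5 and 0.21 at day 9. At day 5 the 8 feeder markers summed to 30.6 to 69.7 RPM with BMP2 and 89.5 to 390 RPM in controls, and their part in the day 5 falls was not tested.

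None of 14 tested early germ cell genes was called at any day, where at most 0.742% of all tested genes were called in 1 direction. Their median change at day 9 was 0.01. Among 14 tested germline genes that are normally silenced by promoter methylation, Ddx4 was called at day 9 and no other. Ddx4, the germ cell RNA helicase Vasa, had 90.3, 90.9, 127 and 134 RPM with BMP2 at day 9, against 43.4, 36.4, 52.3 and 34.7 RPM in controls. Its treatments overlapped at days 4, 5 and 7 and did not overlap at day 9, where the log2 change was 1.38 (SE 0.23, adjusted p = 9.1e-06). H18 with BMP2 had 328 and 251 RPM of Ddx4 at day 9. All 14 of these germline genes had a positive change at day 7 and 12 of 14 at day 9, with medians of 0.46 and 0.65, where 59.1% and 55.2% of all tested genes had a positive change. Dazl, an RNA-binding protein of germ cells, had 463, 366, 859 and 599.6 RPM with BMP2 at day 9, against 337, 271, 469 and 266 RPM in controls, overlapped between treatments and was not called (0.73 (SE 0.34, adjusted p = 0.35)).

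The list of meiotic prophase holds 39 genes, of which 17 were tested. None of the 17 was called at any day, and their median change was 0.40 at day 7 and 0.22 at day 9. As at most 0.742% of all tested genes were called in 1 direction, no call among 17 says little about these genes. Stra8 had 19.7, 8.66, 21.9 and 35.7 RPM with BMP2 at day 9, against 5.99, 19.6, 13.3 and 40.3 RPM in controls. The treatments overlapped in both clones, and the log2 change was 0.25 (SE 0.49, adjusted p = 0.91). H18 with BMP2 had 146 and 172 RPM of Stra8 at day 9, and the knockout clones differed from it under BMP2 by -2.98 (SE 0.60, adjusted p = 7.7e-05). Rec8, a meiotic cohesin, had 44.7, 27.6, 59.3 and 43.4 RPM with BMP2 at day 9, against 39.8, 47.4, 35.3 and 24.1 RPM in controls, and a change of 0.24 (SE 0.30, adjusted p = 0.84). Among 7 tested oocyte genes, Uchl1, a deubiquitinase of neurons and germ cells, was called at day 7 (1.40) and day 9 (1.001). Over the refits, single clones included, its day 9 change ran from 0.42 to 1.58, and the call was kept in 12 of 20.

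Dnmt3l, a cofactor of de novo DNA methyltransferases that acts in prospermatogonia and oocytes, had 19.098, 18.4, 12.7 and 10.5 RPM with BMP2 at day 9, against 82.5, 53.1, 39.4 and 152 RPM in controls. The treatments did not overlap at days 7 and 9, and levels in both were higher at day 9 than at day 4. Dnmt3l was called lower at day 9 (-2.21 (SE 0.55, adjusted p = 0.012)), after changes of -1.07 at day 5 and -1.49 at day 7 that did not pass, and no other of 11 tested genes of DNA methylation and demethylation was called. Klf2, a naive pluripotency factor, had 49.5, 80.1, 50.03 and 50.4 RPM with BMP2 at day 9, against 141, 83.2, 127 and 159 RPM in controls. It was the only one of 19 tested pluripotency genes called, at day 9 (-1.13 (SE 0.31, adjusted p = 0.031)). No gene was called at any day among the 20 tested genes of G2 and M phase, 20 of DNA replication, 16 of p53 and apoptosis or 17 of glycolysis. With at most 0.742% of all tested genes called in 1 direction, lists of this size with no call say little about their genes.

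**Figure D4:**
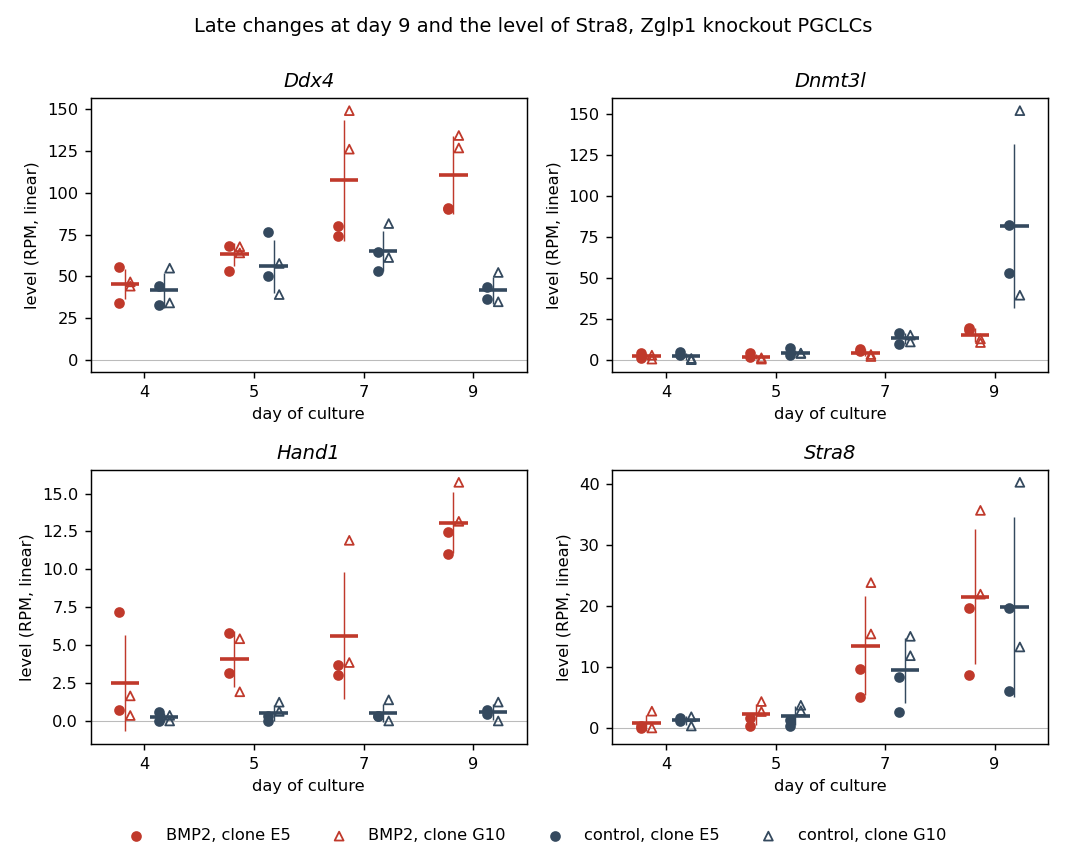
Levels in RPM of Ddx4, Dnmt3l, Hand1 and Stra8 by day, with BMP2 to the left of control, E5 as filled circles, G10 as open triangles, the bar as the mean of 4 libraries and the line as its SD. At day 9 Ddx4 lies between 90.3 and 134 RPM with BMP2 and between 34.7 and 52.3 RPM in controls, Dnmt3l lies lower and Hand1 higher with BMP2, and Stra8 overlaps.

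Of the 71 that rose at day 9, 67 had a positive change at day 7, 63 at day 5 and 52 at day 4, with medians of 0.79, 0.34 and 0.21. Of all tested genes 59.1%, 55.7% and 58.3% had a positive change at days 7, 5 and 4. Of the 53 that fell, 53 had a negative change at day 7, 47 at day 5 and 42 at day 4, with medians of -1.49, -0.93 and -0.30, where 40.9%, 44.3% and 41.7% of all tested genes had a negative change. Across all 9566 tested genes the responses of days 7 and 9 correlated at r = 0.67 and those of days 4 and 9 at r = 0.29. Days share clones but no libraries, and genes are not independent replicates.

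The size of the response changed between day 4 and day 9 in 3 genes called higher and 9 called lower (0.0314% and 0.0941% of tested genes), with 456 at an unadjusted p under 0.05. The lower ones included Robo3 (-4.76 (SE 0.80, adjusted p = 9.8e-05)), Dcx (-4.12 (SE 0.57, adjusted p = 6.6e-07)), Miat (-3.95 (SE 0.61, adjusted p = 1.8e-05)), Sox11 (-3.25 (SE 0.73, adjusted p = 0.02)) and Stmn2 (-3.24 (SE 0.69, adjusted p = 0.018)), all of which overlapped between treatments at day 4. Among those called higher was Ninj1, an adhesion protein (1.35 (SE 0.31, adjusted p = 0.02)). Ninj1 had 48.7, 32.2, 25.3 and 35.5 RPM with BMP2 at day 4, against 74.3, 54.0, 61.1 and 56.9 RPM in controls, and 34.0, 31.4, 39.1 and 50.7 RPM with BMP2 at day 9, against 22.2, 37.8, 29.1 and 18.5 RPM in controls. It lay lower with BMP2 at day 4 and overlapped the controls at day 9, and neither day alone was called. The edgeR quasi-likelihood test on recovered reads called 0 genes for this difference, and without the first E5 control of day 4 limma called 42.

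No gene was called for a difference between the clones' responses at day 4, 5, 7 or 9 (0% of tested genes each), with 431, 317, 587 and 932 genes at an unadjusted p under 0.05. The edgeR test called 0, 0, 19 and 0 genes, all 19 of them lower in G10 than in E5. Calls in E5 alone covered 0.418% of tested genes at day 9 and calls in G10 alone 1.26%. Of the 14 genes higher in E5 alone at day 9, 14 had a positive change in G10 and 5 were called there, and of the 56 higher in G10 alone, 47 had a positive change in E5. Of all tested genes 62.2% had a positive change in G10 and 46.8% in E5 at that day. Of the 26 genes lower in E5 alone, 20 had a negative change in G10 and 11 were called there, and of the 65 lower in G10 alone, 54 had a negative change in E5, where 37.8% of all tested genes had a negative change in G10 and 53.2% in E5. Across tested genes the responses of G10 and E5 correlated at r = 0.04 at day 4, 0.20 at day 5, 0.36 at day 7 and 0.28 at day 9. Every gene called with both clones averaged had the same sign in each clone. As the calls were made on the mean of these same responses, that agreement follows largely from the selection and is not replication.

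**Figure D5:**
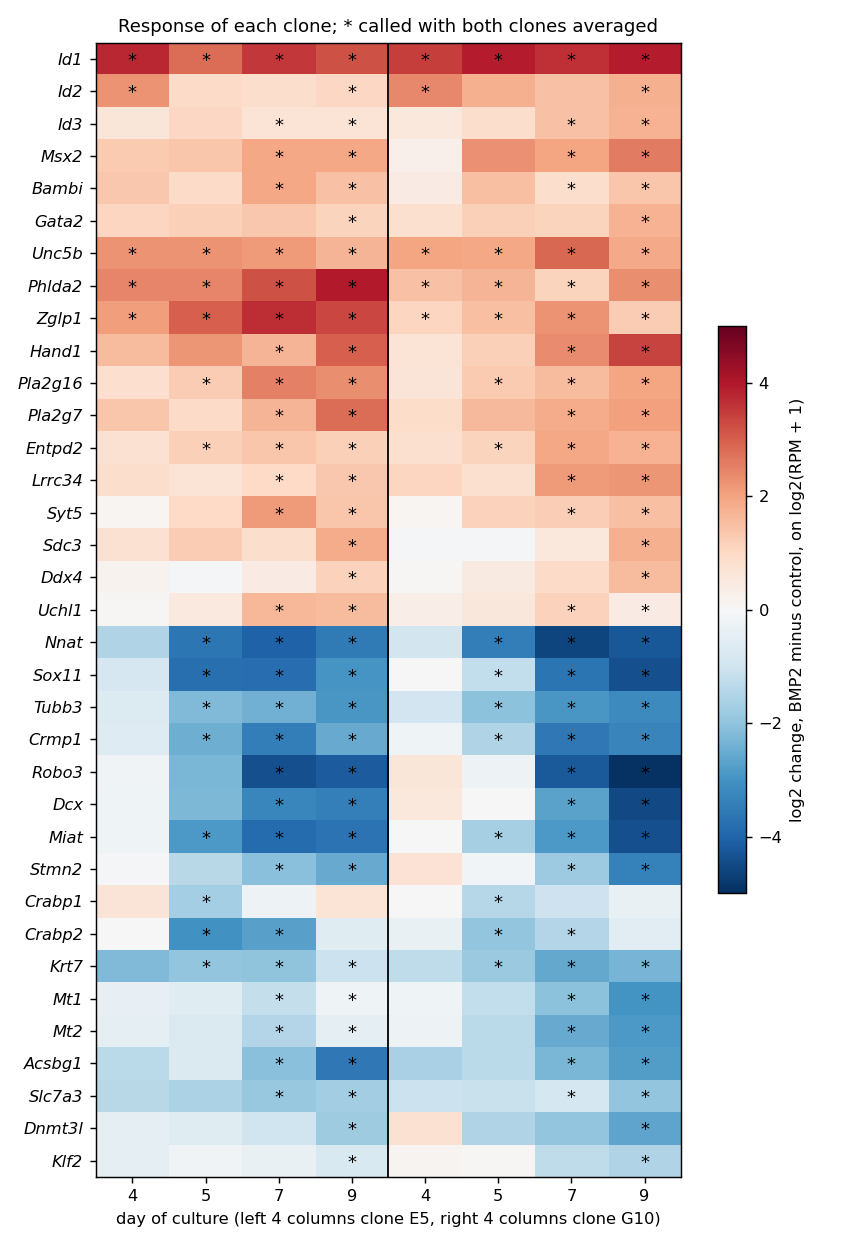
The log2 change with BMP2 over control of 35 genes (rows) in E5 (left 4 columns) and G10 (right 4 columns) at days 4, 5, 7 and 9, with a star where the gene was called with the clones averaged. Id1 is higher in all 8 columns, and Nnat is lower at days 5, 7 and 9 in both clones.

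At day 4, H18 also has BMP2 and control libraries, so the response of the knockout clones could be set against that of the parent line. There the H18 controls carry a different extraction protocol label from the H18 BMP2 libraries, so the H18 changes of day 4 mix treatment and protocol. Of tested genes 53 differed (0.554%), 13 with a higher and 40 with a lower response in the knockout clones, and 990 had an unadjusted p under 0.05. With a term for replicate number the count was 92. The Id1 response of 3.63 in the knockout clones and 3.19 in H18 was not shown to differ (0.44 (SE 0.70, adjusted p = 0.89)), nor was that of Id2, at 2.33 in the knockout clones and 2.64 in H18 (-0.31 (SE 0.64, adjusted p = 0.93)). Unc5b changed by 2.102 in the knockout clones and -0.03 in H18, a difference of 2.13 (SE 0.67, adjusted p = 0.13) that did not pass. At day 3.5, H18 had 8.16 and 9.21 RPM of Unc5b with BMP2, against 1.39 and 1.26 RPM in controls, so Unc5b was higher with BMP2 in H18 at that day.

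Lefty2, a secreted inhibitor of Nodal signals, was among the 13 genes with a higher response. It had 73.4, 37.1, 43.5 and 34.8 RPM with BMP2, against 34.6, 30.9, 23.9 and 22.9 RPM in controls of the knockout clones, and 23.9 and 25.2 RPM with BMP2, against 192 and 191 RPM in controls of H18. Both H18 controls of day 4 stood far above the other day 4 libraries for Lefty2. H18 controls of day 3.5 had 7.90 and 13.2 RPM of Lefty2. The response differed by 3.60 (SE 0.81, adjusted p = 0.012).

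Nlrp4c, a member of the NLR family, had 25.3, 10.5, 28.7 and 10.4 RPM with BMP2, against 26.6, 10.7, 38.7 and 12.8 RPM in controls of the knockout clones, and 66.9 and 84.0 RPM with BMP2, against 10.2 and 6.24 RPM in controls of H18, a response lower in the knockout clones by -3.27 (SE 0.70, adjusted p = 0.008). Its H18 controls of day 3.5 had 40.0 and 35.8 RPM. Of the 40 genes with a lower response, 24 have symbols of predicted genes and are not named. The median response of the 13 genes was 0.29 in the knockout clones, -1.94 in H18 at day 4 and 0.07 in H18 at day 3.5. The median of the 40 genes was -0.18 in the knockout clones, 1.605 in H18 at day 4 and 0.01 in H18 at day 3.5. H18 controls of day 4 carry a different extraction protocol label from the other libraries compared. Treatment and protocol therefore cannot be told apart in the H18 response of day 4, nor line and protocol in the difference of responses.

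Libraries of the same clones labelled B2RA show how the genes above stood in another condition. The labels do not define B2RA, which is read here as BMP2 with retinoic acid. The comparison called 5.8% of tested genes between B2RA and BMP2 alone at day 9. Stra8 had 336 and 356 RPM in E5 and 299 and 414 RPM in G10 at day 9, and the log2 difference from BMP2 alone was 4.11 (SE 0.49, adjusted p = 2.8e-10). Id1, with 370.1 and 418 RPM in E5 and 430.3 and 518 RPM in G10, was higher than with BMP2 alone (1.66 (SE 0.40, adjusted p = 0.0019)), as were Phlda2 (2.18 (SE 0.44, adjusted p = 1.9e-04)), Unc5b (1.66 (SE 0.39, adjusted p = 0.0012)), Hand1 (1.63 (SE 0.52, adjusted p = 0.021)) and Crabp2 (1.46 (SE 0.35, adjusted p = 0.0016)). Zglp1 had 32.7 and 20.3 RPM in E5 and 16.3 and 25.6 RPM in G10, and its difference of 0.47 (SE 0.36, adjusted p = 0.38) did not pass. Dcx had no read in these 4 libraries. Entpd2 had 8.43 and 25.4 RPM in E5 and 8.15 and 13.5 RPM in G10. Except in the second E5 library, these Entpd2 values lay below its values with BMP2 alone given above. The genes given here are examples, and not every named gene was higher with B2RA than with BMP2 alone.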

How the data were processed

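The 3' ends of RNA, amplified from 1 ng per library, were sequenced, per the labels. The authors deposited RPM values of 25706 endogenous genes, with 3 transgene rows added. Where the transgene rows lift a column's total most, its values were treated as a deposited signal in units of RPM. The submitters' processing notes name genome build mm10 and the tools HTSeq 0.9.1, SAMtools 1.3, TopHat2 2.1.0, Bowtie 1.1.2 and cutadapt 1.9.1. What each did, and the annotation, are not given in the sources used here. Of 195 value columns, 194 matched a labelled sample and 1 was not used, and 3 lines shifted by an empty cell were realigned. In every column used, 100% of values were whole reads within 0.05. Copies made by amplification are counted, as no molecular identifiers are stated.

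One limma 3.58.1 model (R 4.3.3; lmFit, then eBayes with both its trend and robust options) described log2(RPM + 1) in 191 PGCLC libraries by 1 mean per line or clone, treatment and day, with the clones' responses averaged equally. P-values were adjusted by Benjamini-Hochberg over all tested genes of a comparison. Beside Zglp1, Stra8 and members of 28 lists, up to 10 rises and 10 falls per day are named, if called, with 20 RPM or more on average in the higher treatment and no overlap within either clone. Differences of responses name up to 6 genes each way, and some of these are not reported here. Predicted symbols, Rik clones and pseudogenes were counted and not named. The members and the lists were chosen with earlier results of these data known. Positions and promoters are RefSeq GRCm38.p6, matched by gene ID for 74 of 74 named genes. Same-numbered BMP2 and control libraries deviated together in all 8 pairs of clone and day (r from 0.122 to 0.452 across genes). The replicate numbers may therefore pair the libraries, which the labels do not state. The main model has no term for replicate number. Alternatives were pseudocounts of 0.5 and 5, other filters, TMM factors, array weights, replicate blocks, a fit of only the groups compared, edgeR 4.0.16 on the recovered reads, single clones and leaving out 36 libraries in turn. The limma step was tested on simulated data.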

Additional observations from a re-analysis of the deposited data

Results flagged for a closer look

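The response to BMP2 differed between day 9 and day 4 by the test of that difference in 6 named genes. On the log2 scale, day 9 minus day 4, the difference was -4.76 for Robo3, -4.12 for Dcx, -3.95 for Miat, -3.25 for Sox11, -3.24 for Stmn2 and 1.35 for Ninj1. In Robo3, Dcx, Miat, Sox11 and Stmn2 the controls were higher at day 9 than at day 4 in both clones, while the BMP2 libraries stayed at or below 9.37 RPM for Stmn2 and at or below 3.25 RPM for the other 4 genes on both days. The edgeR test called none of them for this difference.

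The response at day 4 differed between the knockout clones and H18 in 10 named genes. The difference, knockout minus H18, was 3.60 for Lefty2, 3.14 for Fos, 2.94 for Pkdcc, 2.21 for Hspb11 and 2.11 for Slc22a5. It was -3.27 for Nlrp4c, -2.53 for D7Ertd143e, -2.09 for Rpgrip1, -1.94 for Srr and -1.61 for Nptn. H18 controls of day 4 carry another extraction protocol label than the other libraries compared, H18 with BMP2 included. Neither treatment in H18 nor line in these differences can therefore be told apart from protocol. Groups of clone, treatment and day hold 2 libraries each, so single libraries could not be checked as outliers within a group. Set against all other libraries, the second E5 control of day 4 stood apart, as described above, and it is part of these differences.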

How the results depend on the processing

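No call of a named gene changed sign under any alternative run. At day 9, where 71 genes rose and 53 fell, falls outnumbered rises with a pseudocount of 5 (46 rises and 51 falls), no filter (185 and 294), edgeR (67 and 76), E5 alone (14 and 26), G10 alone (56 and 65), without E5 BMP2 1 (53 and 71) and without G10 control 2 (35 and 40). At day 7, falls outnumbered rises under every alternative run. Of 111 calls of named genes, 109 were kept with TMM factors, 110 with no filter on low values, 107 with a pseudocount of 0.5, all but 10 with a pseudocount of 5, 105 with array weights, 106 in a fit of only the groups compared and 100 with edgeR on the recovered reads. The filter per comparison kept 103 of 104, and leaving out 1 library kept 747 of 976. A single clone kept 42 of 95 in E5 and 49 of 95 in G10. With 2 libraries per group and 1 read worth up to 0.567 RPM, changes of low genes and differences between clones are measured less firmly than responses averaged over the clones.

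The counts that moved by over 1.5 times, whose cause was not tested, were these. At day 4, where 5 genes were called, a pseudocount of 5 gave 3, array weights 3, the filter per comparison 2, E5 alone 9 and G10 alone 2. At day 5, with 26 called, no filter gave 52, array weights 46, edgeR 40 and G10 alone 3. At day 7, with 70 called, no filter gave 177, array weights 136, edgeR 117 and E5 alone 26. At day 9, with 124 called, no filter gave 479 and E5 alone 40. For day 9 minus day 4, with 12 called, a pseudocount of 5 gave 21, no filter 90, array weights 4, only the groups compared 7 and edgeR 0. For the response in G10 minus that in E5, with 0 called at each day, no filter gave 2 at day 5 and 97 at day 9, the filter per comparison 2 at day 9, array weights 64 at day 7 and edgeR 19 at day 7. For the knockout clones minus H18, with 53 called, array weights gave 133 and only the groups compared 98.

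With a replicate block, a term for replicate number within each line or clone, the knockout minus H18 count was 92, and the block changed no other call of a named gene and no other count by over 1.5 times. A finer replicate block within clone and day, chosen after seeing the data, gave 117 for knockout minus H18 and 3 for G10 minus E5 at day 9, and Tuba1b at day 5 then missed the threshold.

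Leaving out 1 library gave 3 to 117 calls at day 4, 17 to 28 at day 5, 41 to 60 at day 7, 75 to 184 at day 9, 4 to 42 for day 9 minus day 4 and 12 to 112 for knockout minus H18. For G10 minus E5 it gave 0 to 308 at day 4, 0 to 1 at day 5, 0 to 0 at day 7 and 0 to 208 at day 9. A group left with 1 library was assumed to vary like the others. At day 4, 3 genes were called without E5 control 2, E5 BMP2 2, G10 control 1 or G10 BMP2 2, and 117 without E5 control 1. At day 5, 17 were called without E5 BMP2 1, E5 BMP2 2 or G10 BMP2 2. At day 7, 46 were called without E5 control 1 or E5 BMP2 2, 45 without G10 BMP2 1 and 41 without G10 control 2. At day 9, 77 were called without E5 control 2, and 75 without G10 control 2 or G10 BMP2 2. For day 9 minus day 4, 42 were called without E5 control 1 of day 4, 24 without G10 control 1 of day 9, 5 without E5 BMP2 2 of day 9, and 4 without G10 BMP2 1 of day 4 or G10 control 2 of day 9. For G10 minus E5, 308 were called at day 4 without E5 control 1, and at day 9, 208 without G10 control 1, 77 without E5 BMP2 1 and 2 without E5 control 1. For knockout minus H18, 112 were called without E5 control 1, 33 without E5 BMP2 2, 25 without G10 control 1, 34 without G10 BMP2 2, 19 and 15 without H18 control 1 or 2, and 12 and 21 without H18 BMP2 1 or 2.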
